A study of Homo sapiens with 4 samples.

Results

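The peaks described here lie on the GL and KI contigs of hg38, the pieces of the human genome assembly that have no fixed place on an assembled chromosome. They were chosen by name, as every deposited FOXK1 peak whose sequence name starts with GL or KI. They number 900 of 821736 peaks in all, 506 in the TGF-β1 list and 394 in the control list. The assay was ChIP-seq of FOXK1, a forkhead transcription factor, in HK-2, an immortalised cell line from human kidney proximal tubule. HK-2 cells given 10 ng/ml TGF-β1 for 24 h were set against HK-2 cells without it, with 1 FOXK1 library and 1 input library each. The design text also speaks of a transfection and does not say what was transfected. Peak lists hold no expression, so the labelled cell type was not checked against its markers. The value of a peak is the authors' pileup height, a whole number of at least 3 that counts stacked fragments at the peak.

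Human ribosomal DNA is a tandem repeat carried in long arrays on the short arms of the acrocentric chromosomes, and the assembly holds only a few copies of it. Each repeat has a 45S unit, which RNA polymerase I transcribes into the precursor of 18S and 28S ribosomal RNA and of a short rRNA that lies between them, and a long intergenic spacer. The unit starts with the 5′ external transcribed spacer (5′ ETS) and also holds internal transcribed spacers between the mature RNAs. Cells adjust the output of these genes to growth and nutrients.

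The contigs GL000220.1 and KI270733.1 are known to hold 45S copies and are called the 45S contigs here. The sequence of the contigs was not used here. RefSeq (GRCh38.p14) places microRNA hairpins in copies of the repeat on chromosome 21, and 2 in the copy RNA45SN1 are shown. They give the base composition of these short stretches only, not that of the repeat or of its peaks. Capitals mark the bases inside a control peak.
MIR6724-4: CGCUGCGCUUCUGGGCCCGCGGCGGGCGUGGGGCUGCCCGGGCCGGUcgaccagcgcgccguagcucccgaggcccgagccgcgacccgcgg
MIR10396B: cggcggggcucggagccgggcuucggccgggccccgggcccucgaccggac
MIR6724-4 (chr21:8432530-8432621, plus strand) starts 692 bp before the 45S start, and 77 of its 92 bases (83.7%) are G or C. The control list had a peak over its first 47 bases, and the nearest TGF-β1 peak lay 9 bp away. MIR6724-2, with the same letters, lies 683 bp before the partial copy of RNA18SP5 and had no peak in either list. MIR10396B (chr21:8436324-8436374, plus strand) starts 3102 bp after the 45S start in the 5′ ETS, with 44 of 51 bases (86.3%) G or C and no peak in either list. Its nearest peaks lay 1975 bp away in the TGF-β1 list and 1719 bp away in the control list. At both distances, 0 of 4 copies on the 45S contigs had a peak in either list.

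The label of the 45S contigs was set beside the annotation and the peaks. RefSeq lists the 45S units RNA45SN5 at 105424 to 118780 with no chromosome and RNA45SN4 at 122273 to 135645 under chromosome 22. Its table names no contig, and these positions were read as lying on GL000220.1 for RNA45SN5 and on KI270733.1 for RNA45SN4. Each contig also has a second, partial copy, marked by the 18S pseudogenes RNA18SP3 and RNA18SP4 and cut short by the contig end. The copies start 43972 bp apart on GL000220.1 and 45085 bp apart on KI270733.1. In each list, all 4 copies had a peak over the first 500 bp of 28S, and with the contig names exchanged 0 of 4 did. This position was chosen with the peaks known, so the count describes the reading of the names and is no independent support for it.

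By median, peaks on the 45S contigs were far higher than the rest of their lists, but they were not the highest. The highest on the 45S contigs were 74 in the TGF-β1 list and 79 in the control list, against 8140 and 4805 on chromosomes. In the TGF-β1 list, 34 peaks on the 45S contigs had a median height of 39.5, with a quartile range of 6 to 57.75. Weighted by peak width, that median was 15. The 472 peaks on other contigs of that list and its 439136 peaks on assembled chromosomes both had a median of 5. In the control list, 36 peaks on the 45S contigs had a median height of 51, with quartiles at 37.5 and 63, while its 358 peaks on other contigs had a median of 5.5 and 381700 on chromosomes a median of 5. Of the chromosomal peaks, 0.236% in the TGF-β1 list and 0.197% in the control list were as high as the median of the 45S contigs.

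A height of 20 or more was reached by 19 of 34 TGF-β1 peaks on the 45S contigs, 55.9% (exact binomial 95% interval 37.9 to 72.8), against 1.32% of the chromosomal peaks of that list. In the control list it was reached by 30 of 36, 83.3% (67.2 to 93.6), against 1.99% of chromosomal peaks. On the other contigs the shares were 3.39% (1.95 to 5.45) in the TGF-β1 list and 4.19% (2.36 to 6.82) in the control list. All 19 and all 30 of these peaks on the 45S contigs also reached a height of 30, which 0.486% of TGF-β1 and 0.755% of control chromosomal peaks did. Intervals cover counting error only, and peaks of 1 library are not replicates. Depth is unknown and each condition has 1 library, so heights and counts of the lists stand side by side and do not measure a change. The lists give no input height or fold enrichment for any peak.

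**Figure D1:**
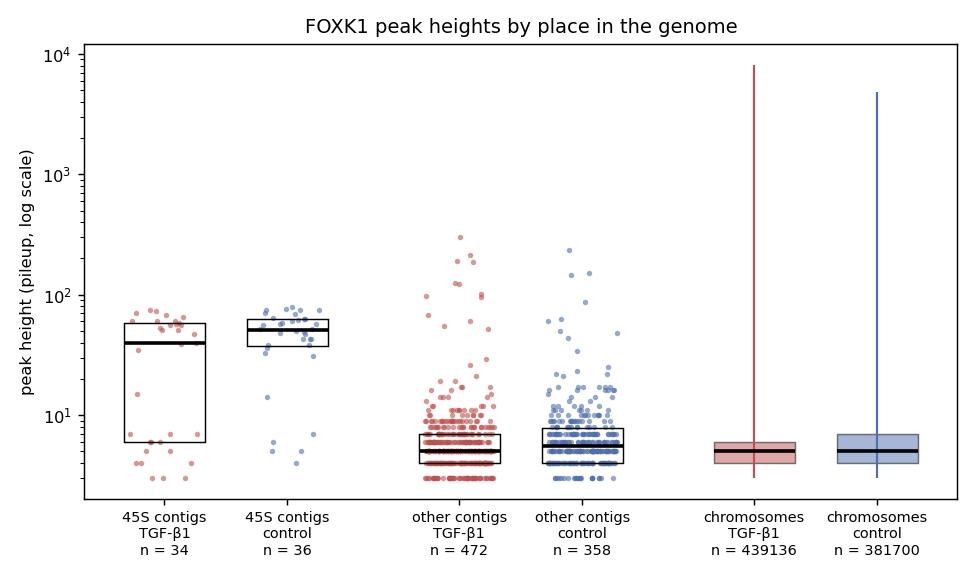
Peak height (pileup, log scale) on the 45S contigs, the other contigs and the assembled chromosomes, in the TGF-β1 list and the control list. Points are peaks, boxes run from the lower to the upper quartile, thick lines are medians, and the thin lines for chromosomes span the lowest to the highest peak. The medians on the 45S contigs are 39.5 and 51, against 5 or 5.5 in all other groups.

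High peaks were limited to the stretch with ribosomal DNA and did not run along the whole contig. On GL000220.1, the 8 TGF-β1 peaks between 31669 and 69214 had heights of 3 to 15, and the 11 between 101680 and 161207 had heights of 35 to 74. The control list had 2 peaks of 4 and 14 there up to 70941, and 16 peaks of 31 to 76 from 101710 to 161241. On KI270733.1, the 7 TGF-β1 peaks up to 78929 had heights of 3 to 7, and the 8 from 119589 to 179142 had heights of 47 to 73. The control list had 4 peaks of 5 to 7 up to 86978, and 14 peaks of 33 to 79 from 124210 to 179264. No peak of either list on these contigs had a height between the low and the high set, and at least 30768 bp without a peak lay between them in every case. The low peaks had medians of 5 in the TGF-β1 list and 5.5 in the control list, close to those of the other contigs, and the high peaks had medians of 57 in the TGF-β1 list and 56.5 in the control list.

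**Figure D2:**
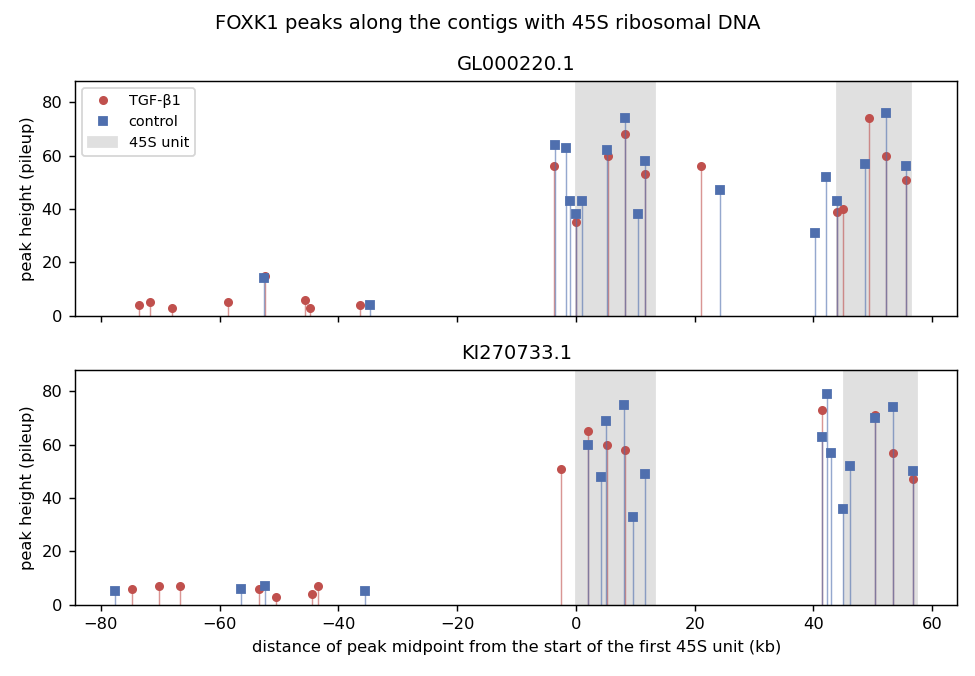
Peak height against the distance of the peak midpoint from the start of the first 45S unit on GL000220.1 and on KI270733.1, in kb, for TGF-β1 peaks (circles) and control peaks (squares). Grey bands are the 45S units, the second of each contig cut by the contig end. Peaks far upstream have heights of 3 to 15 and those from just before the first unit onward have heights of 31 to 79.

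Within the 45S units of the contigs, peaks of both lists recurred at 3 places of the mature rRNA sequences. One was the start of 28S, the large-subunit rRNA, at 8000 to 8499 bp from the 45S start, where all 4 contig copies had a peak in each list. There the TGF-β1 list had heights of 68 and 60 in the first and the second copy of GL000220.1 and of 58 and 57 in those of KI270733.1. The control list had 74 and 76 on GL000220.1 and 75 and 74 on KI270733.1. The 4 contig copies thus ranged from 57 to 68 in the TGF-β1 list and from 74 to 76 in the control list. These are near-identical copies in 1 library per condition, so the ranges are no spread of a condition and measure no change. In the chromosome 21 copies the ranges overlapped, with 26 to 65 in the TGF-β1 list and 43 to 88 in the control list. On GL000220.1 these peaks in the first copy covered 113391 to 113909 in the TGF-β1 list and 113401 to 113950 in the control list. On KI270733.1 they covered 130251 to 130740 in the TGF-β1 list and 130079 to 130742 in the control list.

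The end of 18S, the small-subunit rRNA, at 5000 to 5499 bp, also had a peak in all 4 contig copies in each list. In the TGF-β1 list the heights were 60 and 74 on GL000220.1 and 60 and 71 on KI270733.1. In the control list they were 62 and 57 on GL000220.1 and 69 and 70 on KI270733.1. The heights of the lists overlapped at this place. The highest TGF-β1 peak of GL000220.1, the one of 74, covered 154566 to 154885 in RNA18SP3, and the control peak over it was the widest control peak of these contigs, with 1484 bp from 153438 to 154921. The later part of 28S, at 11500 to 11999 bp, had TGF-β1 peaks of 53 and 51 on GL000220.1 and of 47 in the second copy of KI270733.1, with none in its first copy. All 4 copies had a control peak there, with heights of 58 and 56 on GL000220.1 and of 49 and 50 on KI270733.1.

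Other parts of the unit had fewer peaks or none. In the middle of 28S, 5 of the 8 copies on the contigs and chromosome 21 had a control peak at 9500 to 9999 bp. The same number had one at 10000 to 10499 bp. On the contigs this was 1 of 4 copies at each place, with heights of 33 and 38. In 18S, at 4000 to 4499 bp, 4 of 8 copies had a control peak. No copy had a TGF-β1 peak at these places, and the difference was not tested. At the 45S start, where the polymerase I promoter lies, the TGF-β1 list had peaks of 35 and 39 in the copies of GL000220.1 and none on KI270733.1. The control list had 38 and 43 in the copies of GL000220.1 and 36 in the second copy of KI270733.1. These were among the lowest of the high peaks. In the 5′ ETS beyond the start, KI270733.1 had peaks of 65 in the TGF-β1 list and 60 in the control list at almost the same place in its first copy, 124117 to 124446 and 124210 to 124522. No copy, on the contigs or on chromosome 21, had a peak of either list from 2500 to 3999 bp, the end of the 5′ ETS and the beginning of 18S. The short rRNA between 18S and 28S and the internal transcribed spacers beside it had 0 peaks by midpoint on the contigs in either list. Copies on chromosome 21 did have peaks there. In the spacer before 28S, RNA45SN2 had a TGF-β1 peak of 76 and a control peak of 61, and RNA45SN3 had a control peak of 50. At the short rRNA, the partial copy of RNA18SP5 had a control peak of 27.

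Inside the 45S units the median height was 60 for 13 TGF-β1 peaks, with a range of 40 to 74, and 56.5 for 20 control peaks, with a range of 33 to 76. Outside them, 21 TGF-β1 peaks had a median of 6 and 16 control peaks a median of 39.5, the low peaks far upstream included. The outside peaks kept for a height of 20 or more had a median of 53.5 for 6 TGF-β1 peaks and of 54.5 for 10 control peaks, values that this choice by height raises. Assignment by midpoint splits the peaks over the 45S start of GL000220.1. The TGF-β1 peaks of 35 and 39 there count as outside, and the control peaks of 38 and 43 as inside. Assigned by any overlap, the inside medians were 58 in the TGF-β1 list and 56 in the control list. The highest TGF-β1 peak of KI270733.1, with 73, lay in the spacer from 3771 to 3458 bp before the second unit, and a control peak of 63 overlapped it. The highest control peak of both contigs, with 79, lay 3115 to 2609 bp before the same unit, from 164243 to 164749, and no TGF-β1 peak overlapped it in place. At partly the same distance, TGF-β1 peaks stood in other copies. Their heights were 51 in the first copy of KI270733.1, and 81 in RNA45SN1 and 66 in RNA45SN3 on chromosome 21. On GL000220.1 the spacer before the first unit had peaks of 56 in the TGF-β1 list and 64 in the control list, at 101680 to 101927 and 101710 to 102026.

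**Figure D3:**
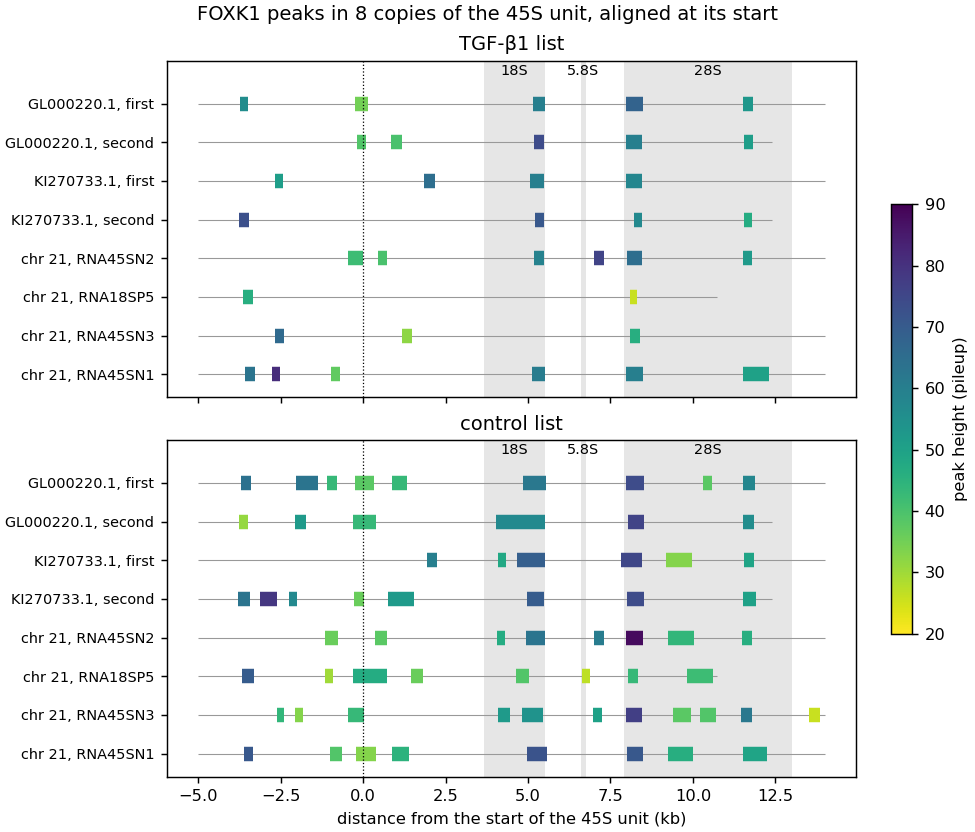
Peaks in 8 copies of the 45S unit, 4 on the 45S contigs and 4 on chromosome 21, by distance from the 45S start in kb, in the TGF-β1 list and the control list. Bars span each peak and their colour gives its height, and grey bands are the mature rRNA sequences as in RNA45SN5. Bars stand in line over the start of 28S in all 8 copies of each list, and the control list has more bars per copy.

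The same places were marked on chromosome 21, which the choice of contigs did not use. Its 4 copies are RNA45SN1, RNA45SN2, RNA45SN3 and the partial copy of RNA18SP5. At the start of 28S the TGF-β1 heights were 60, 65, 46 and 26 in that order, and the control heights were 71, 88, 77 and 43. The partial copy was the lowest in each list. At the end of 18S, 2 of these 4 copies had a TGF-β1 peak, with heights of 61 in RNA45SN1 and 59 in RNA45SN2. All 4 had a control peak that reached this step, with heights of 72, 63, 54 and 39. The one of 39, in the partial copy, ran from 4643 to 5039 bp and so touched only the beginning of the step. From 5000 bp before to 14000 bp after the 45S start, the 4 contig copies held 18 TGF-β1 peaks with a median of 57.5 and 29 control peaks with a median of 57. The same window in the chromosome 21 copies held 17 TGF-β1 peaks with a median of 52 and 35 control peaks with a median of 45. Copies of the repeat are near-identical, and how reads that match several copies were placed is not given in the sources used here. The height at any single copy is therefore uncertain, and the copies are not independent measurements.

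Counted over 38 steps of 500 bp across this window, the TGF-β1 list had a peak in every copy that reached the step in 1 step, the start of 28S, and the control list in 4 steps. Steps with no peak in any copy numbered 18 in the TGF-β1 list and 8 in the control list, and those 8 were empty in both lists. Of the 18 TGF-β1 peaks in the contig copies, 16 had a TGF-β1 peak at the same distance in some other copy. Of the 29 control peaks, 28 had such a control peak. The number expected from position alone was not computed, so these counts are not read as agreement of the copies.

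Over all heights, peaks of the 45S contigs were found in both lists more often than those of the other contigs. Peaks under a height of 20 on the 45S contigs were too few to show whether this held among them. On the 45S contigs, an overlap of at least 1 bp with a control peak was seen for 17 of 34 TGF-β1 peaks (interval of the share 32.4 to 67.6%), against 22.9% of the chromosomal peaks of that list. Of 36 control peaks, 17 (47.2%, 30.4 to 64.5) overlapped a TGF-β1 peak, against 26.1% of chromosomal ones. On the other contigs it was 12.9% (10.03 to 16.3) of TGF-β1 and 16.8% (13.0 to 21) of control peaks. Of the peaks under a height of 20, 1 of 15 TGF-β1 peaks on the 45S contigs overlapped (6.67%, 0.169 to 31.9), against 12.5% on the other contigs. In the control list it was 1 of 6 on the 45S contigs (16.7%, 0.421 to 64.1), against 16.3% on the other contigs. High peaks overlapped more often on the chromosomes and on the 45S contigs, so peaks of height 20 or more were also compared. Among these, 16 of 19 TGF-β1 peaks on the 45S contigs overlapped (84.2%, 60.4 to 96.6), against 94.7% on chromosomes. Of the control peaks, 16 of 30 did (53.3%, 34.3 to 71.7), against 96.1% on chromosomes. The interval takes the peaks as independent, which peaks in near-identical copies are not. Overlap in place also depends on how reads were placed among the copies, so the control share on the 45S contigs, lower than on chromosomes, was not tested.

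The 3 high TGF-β1 peaks on the 45S contigs without a control counterpart lay at 126433 to 126704 on GL000220.1 (height 56), at 150238 to 150560 on GL000220.1 (40) and at 119589 to 119838 on KI270733.1 (51). The first of these is spacer downstream of the unit, the next 5′ ETS and the last spacer upstream. Both peaks that lay in the aligned window had a control peak at the same distance in another copy. The 14 high control peaks without a TGF-β1 counterpart had heights of 31 to 79, and 13 of them lay in the aligned window. A TGF-β1 peak stood at the same distance in some copy for 7 of these 13. Among them was the control peak of 49 in the later part of 28S in the first copy of KI270733.1. In all, 18 of 18 TGF-β1 peaks and 23 of 29 control peaks in the contig copies had a peak of the other list at the same distance in some copy. A match needed only 1 bp in common with a peak of any copy. Of the 38 steps of the window, TGF-β1 peaks left 18 empty and control peaks only 8. How many matches position alone would give was not computed, so none of these counts is read as agreement of the lists.

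High peaks on the 45S contigs were narrower by median than those on chromosomes, and the part of width in the overlap shares was not tested. On the 45S contigs, peaks of height 20 or more had a median width of 320 bp in the TGF-β1 list and 480.5 bp in the control list. Chromosomal peaks of height 20 or more had median widths of 901 bp in the TGF-β1 list and 891 bp in the control list. Low widths were not particular to the 45S contigs. Peaks that high on the other contigs had medians of 316 bp in the TGF-β1 list and 314 bp in the control list. In the chromosome 21 copies the medians were 298 bp in the TGF-β1 list and 397 bp in the control list. All peaks on the 45S contigs together covered 13.6 kb in the TGF-β1 list and 17.7 kb in the control list. The 45S contigs held 0.327% (0.197 to 0.51) of all TGF-β1 peaks that high and 0.392% (0.265 to 0.559) of all control peaks that high, and these intervals overlap.

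The other contigs were mostly like the rest of the lists, with a few very high peaks. A peak in either list was found on 75 other contigs, with more TGF-β1 peaks on 40, more control peaks on 28 and equal numbers on 7. KI270728.1 had the most, 36 in the TGF-β1 list and 20 in the control list, with a median height of 4 in each. KI270742.1 had 26 TGF-β1 peaks with a median of 6 and 18 control peaks with a median of 7. GL000008.2 had 22 TGF-β1 and 12 control peaks, and GL000221.1 had 21 TGF-β1 and 16 control peaks. KI270751.1 had 20 TGF-β1 and 4 control peaks, with no height above 11. These 5 contigs had no peak of height 20 in either list. In all, 24 other contigs had 10 or more peaks in either list, with medians between 4 and 8.5 in the TGF-β1 list and between 4 and 11 in the control list.

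Peaks of height 20 or more were found on 17 of the other contigs, on 12 in the TGF-β1 list and on 10 in the control list. The highest was on KI270467.1, at 2073 to 3556 with a height of 304 in the TGF-β1 list and at 2124 to 3478 with 237 in the control list. It ranked 16th of 439642 TGF-β1 peaks and 14th of 382094 control peaks. On KI270466.1 a TGF-β1 peak of 188 at 884 to 1186 overlapped a control peak of 146 at 918 to 1169. GL000225.1 had a TGF-β1 peak of 55 at 112387 to 112936 over a control peak of 63 at 112385 to 112960. At these 3 places both lists had a high peak. Each list had 1 more high peak that overlapped a lower one of the other list, a TGF-β1 peak of 21 on GL000195.1 and a control peak of 21 on GL000219.1.

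Other very high peaks lay at different places in each list. KI270709.1 had TGF-β1 peaks of 192 at 6705 to 6969 and 95 at 16067 to 16670, and control peaks of 151 at 13479 to 14022 and 87 at 15012 to 15271, with no overlap. GL000214.1 had a TGF-β1 peak of 29 and control peaks of 60 and 50, also without overlap. GL000226.1 had TGF-β1 peaks of 213 at 14605 to 14833 and 123 at 1593 to 2019, KI270337.1 had one of 124 and KI270333.1 had 102 and 97, and none of these 3 contigs had a control peak. KI270754.1, with a TGF-β1 peak of 68, had none either, and KI270544.1 had a control peak of 22 and no TGF-β1 peak. At any height, 14 contigs had peaks in the TGF-β1 list only and 11 in the control list only. Of the high peaks on the other contigs, 4 of 16 in the TGF-β1 list and 4 of 15 in the control list overlapped a peak of the other list, with intervals of the share of 7.27 to 52.4% in the TGF-β1 list and 7.79 to 55.1% in the control list. Both intervals lie below the shares of chromosomal peaks that high. The gene table names no contig, so no gene is given for these sites.

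**Figure D4:**
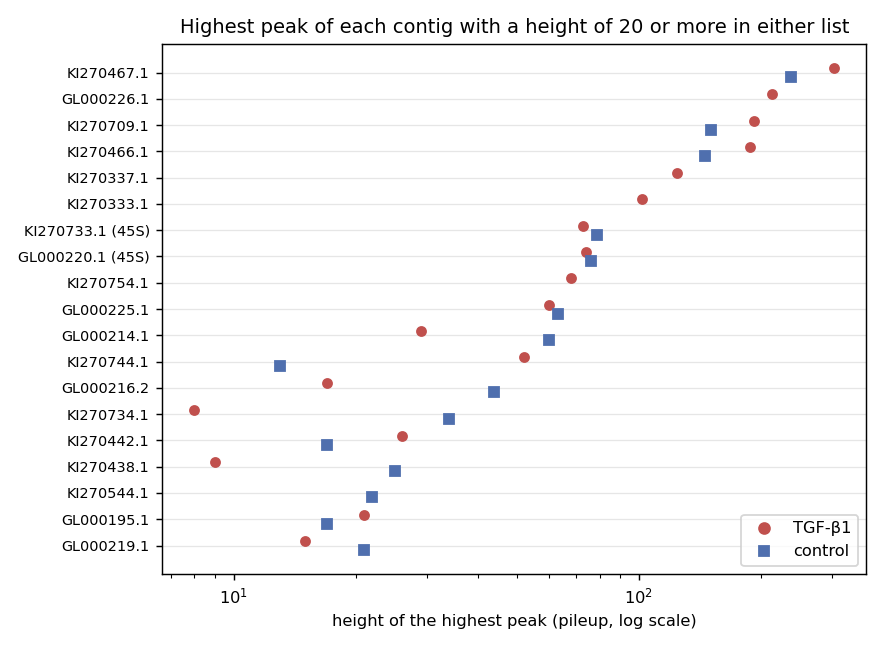
Height of the highest peak (pileup, log scale) on each contig with a peak of height 20 or more in either list, in the TGF-β1 list (circles) and the control list (squares); a missing symbol means no peak in that list. KI270467.1 leads in both lists, with 304 and 237. GL000226.1, KI270337.1, KI270333.1 and KI270754.1 have TGF-β1 peaks but no control peak, and KI270544.1 has a control peak but no TGF-β1 peak.

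RefSeq lists 23 dispersed rRNA pseudogenes of the 45S family on assembled chromosomes away from the copies on chromosome 21. In the TGF-β1 list 0 of the 23 had a peak, and in the control list 5 had one. The control heights were 3 and 5 at the 28S pseudogenes LOC110467531 and LOC110467528, 4 at RNA5-8SP4, 5 at LOC110467523 and 7 at LOC110467538, an 18S pseudogene. Heights of 20 or more are rare on the chromosomes at large, so nothing particular to these pseudogenes is read from the lack of one. The share of comparable loci with a peak was not computed, so the counts of 0 and 5 are not read as high or low. Chromosomal peaks covered 186400 kb in the TGF-β1 list and 169300 kb in the control list, so some loci meet a peak by position alone.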

How the data were processed

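FOXK1 and input chromatin of HK-2 cells was crosslinked and broken up by micrococcal nuclease and then sonication, per the labels' protocols. The deposited lists give a pileup signal (height) per peak, called in each condition from 1 FOXK1 library against its input and not pooled, per the peak names. The build was hg38 and the tools were MACS2 2.1.1.20160309 and bcl2fastq 2.17, per the submitters' processing notes. Aligner, duplicate and multi-mapping treatment, peak threshold and depth are not given in the sources used here, and the lists hold no height of the input. Starts were read as counting from 0 and are printed counting from 1.

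Lists were analysed with Python 3.11.15, pandas 2.3.3 and scipy 1.17.1, and the code that counts overlaps was checked on simulated lists with known overlap. Copies of the 45S unit were placed by RefSeq genes on GRCh38.p14, partial copies by their 18S start with the lengths of RNA45SN5. A peak was assigned to a part by its midpoint. Shares have exact Clopper-Pearson 95% intervals. With 1 library per condition no difference between conditions was tested. The rule for names took contigs with 10 or more peaks in either list or with 1 of the 5 highest peaks off the 45S contigs, and on each 45S contig the 5 highest, the lowest and the high peaks without counterpart, given by ranges where many. KI270333.1, KI270754.1, KI270544.1 and the recurring places in the unit were chosen after their values were seen. Members and settings were chosen with earlier results of these data known.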

Additional observations from a re-analysis of the deposited data

How the results depend on the processing

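Of 50 alternative values for 18 results, 35 stayed within 1.5 times the count or within the 95% interval of the value. Counts followed the height minimum. At heights of 10 or more and of 20 or more, the contigs held 72 and 35 TGF-β1 peaks and 88 and 45 control peaks, so that the order of the lists turned, while the 45S contigs held 20 and 19 TGF-β1 peaks and 31 and 30 control peaks. With only peaks of height 10 or more, the median height was 56.5 on the 45S contigs in the TGF-β1 list and 14 on the other contigs in each list. Overlap was then 85.0% of TGF-β1 peaks on the 45S contigs, and 26.9% of TGF-β1 and 22.8% of control peaks on the other contigs. With peaks of height 20 or more, an alternative added after seeing the data, it was 84.2% of TGF-β1 peaks on the 45S contigs, and 25% of TGF-β1 and 26.7% of control peaks on the other contigs. Weighted by width, the TGF-β1 median on the 45S contigs was 15, within its wide interval of 6 to 56. Either 45S contig alone, merging of peaks less than 500 bp apart and overlap of at least 50% of a peak moved no result beyond its limit. No paired analysis was possible because each condition has 1 library and no test was made. Unknown depth and the unknown placement of reads among near-identical copies limit every height.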

Other observations

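The 5S ribosomal RNA genes, which RNA polymerase III transcribes from an array on chromosome 1, are set here beside the 5S pseudogenes. Of the 17 genes of that array, 1 overlapped a TGF-β1 peak, RNA5S12 with a height of 29. In the control list 3 did, RNA5S3 with 26, RNA5S6 with 33 and RNA5S13 with 26. None of these 17 had a peak in both lists. Of 510 annotated 5S pseudogenes, 44 overlapped a TGF-β1 peak and 33 a control peak, and the difference from the array was not tested. These 510 include RNA5SP18, which follows the last gene of the array on chromosome 1 and had a control peak of 38. A peak in both lists was found at 9 of these pseudogenes, the highest at RNA5SP362 on chromosome 12, with 50 in the TGF-β1 list and 83 in the control list, which is named after its values were seen. The share of other loci of this length with a peak was not computed, so none of these counts is read as high or low. The members of the array are near-identical, so the height at any single gene is uncertain.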
